A study of Homo sapiens with 72 samples.

Results

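The response of UV-irradiated human cells to inhibition of the checkpoint kinase ATR was measured at 4 h in the unedited line (WT), as polyadenylated RNA from 3 libraries with the inhibitor and 3 with its solvent. These 6 libraries were chosen by their labels from 72 libraries in 24 groups, and all 15470 genes of 19324 in the table that passed a filter on low counts were compared. The cells were HEK293 Flp-In T-REx, a transformed human embryonic kidney line carrying a site for targeted insertion of transgenes. Both groups had been irradiated and left to recover for 3 h. One group then received 3 µM VE-821, an inhibitor of ATR (ATRi), and the other received DMSO. The study asked how blocking ATR alters transcription after UV. The rest of the series held WT cells at other times (0 h, 3 h and 20 h) and 3 edited lines, which lacked CSB (CSB_KO) or STK19 (STK19_KO1, STK19_KO2). CSB and STK19 act in transcription-coupled repair. The labels leave unclear whether the 4 h began at irradiation or when ATRi was added. They do not give the UV dose. The titles of the 0 h libraries carry the tag unt, which the labels do not spell out. None of the 24 groups had ATRi without UV, so the changes cannot be tied to irradiation.

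ATR is recruited by its partner ATRIP to single-stranded DNA coated with RPA, as it forms at stalled replication forks and during repair of UV lesions. Activated through TOPBP1 or ETAA1, it phosphorylates CHEK1, which restrains CDC25 phosphatases and thereby holds back origin firing and entry into mitosis. The pathway acts mainly through phosphorylation, so the RNA levels below do not show whether the kinase was inhibited.

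The 6 libraries held 36.5 to 116.2 M counts each. Replicate 1 in DMSO stood apart, with a chi-square per gene of 25 and 49.5 against the other 2 DMSO libraries, while every other pair within a group lay between 5.74 and 8.29. Mitochondrial transcripts took 3.87 to 4.47% of counts with ATRi and 4.59 to 4.78% in DMSO, ranges that did not overlap, and their part in the results was not tested. All 7 HEK293 markers were tested (NEFL, NEFM, VIM, KRT8, KRT18, PAX2 and LIN28B), and only LIN28B changed. Levels are CPM, read counts relative to the library total after TMM scaling (trimmed mean of M values). Changes are log2 fold changes, ATRi over DMSO, with their standard errors. A gene was said to have risen or fallen where the quasi-likelihood test of edgeR gave a p under 0.05 after adjustment by Benjamini-Hochberg across the 15470 genes. CPM are relative abundances. Nothing in the labels says that replicates were separate cultures, so the spread behind each p is only that between these samples, which may be technical.

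With ATRi at 4 h, 411 genes changed, 2.66% of those tested (edgeR). Of these, 314 rose (2.03%) and 97 fell (0.627%). The changes were small, with a median absolute log2 change of 0.29 among the called genes and the 10th and 90th percentiles at 0.183 and 0.538. The genes of largest change included MYC, EGR1 and CHAC1 among those that rose and PRR18, SBSN and PYGM among those that fell. The change was at least 2-fold in 10 of the called genes (0.0646% of those tested), of which 3 rose and 7 fell. Of these 10, PRR18 and CASS4 alone had a mean level above 1 CPM in the 6 libraries. Over all tested genes, the ATRi and DMSO libraries did not overlap in 17.9%; absence of overlap in a called gene restates its call.

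**Figure D1:**
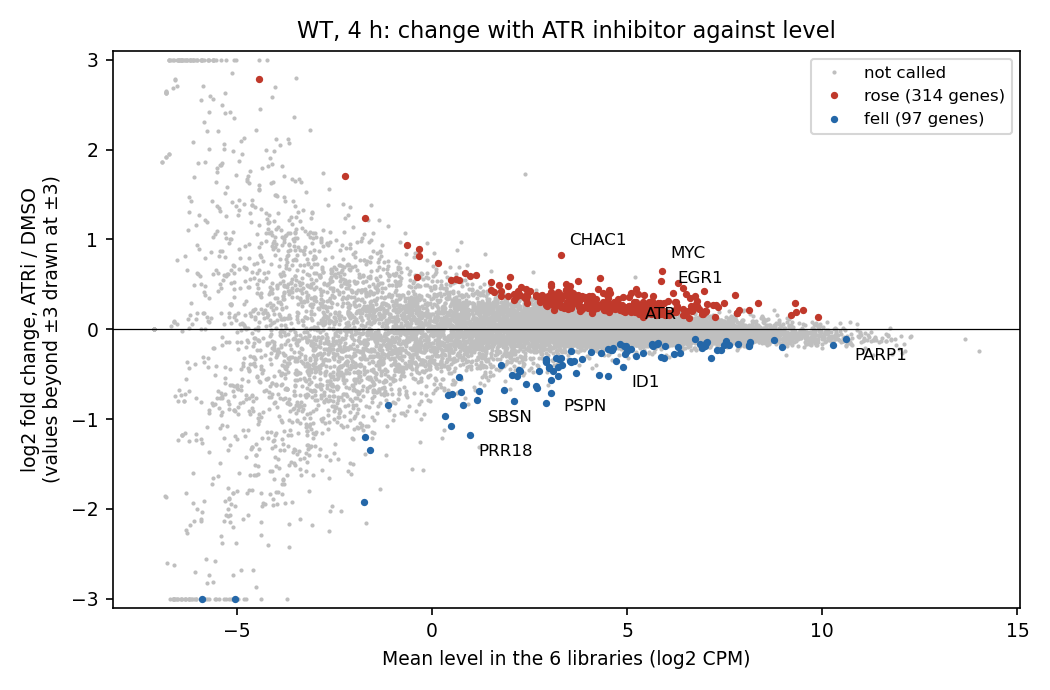
Each point is 1 of 15470 genes in WT at 4 h, with its mean level over the 6 libraries (log2 CPM) on the horizontal axis and its log2 fold change, ATRi over DMSO, on the vertical axis. The 314 genes that rose (red) and the 97 that fell (blue) lie mostly within 1 log2 unit of 0, and ATR lies at 0.00; values beyond 3 in either direction are drawn at 3.

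The count of calls rested on the pooled spread of all 72 libraries. With only the 6 libraries in the fit 2 genes passed, MYC and EGR1, and with only the 18 WT libraries 17 passed. Without DMSO replicate 1 the count was 460. Leaving out any other single library reduced it to between 196 and 247, and leaving out replicate 1 of both groups to 170. Scaling by library totals alone raised it to 675, of which 621 rose and 54 fell. The excess of rises was smaller in other fits: the 6 libraries with a replicate block gave 221 rises and 182 falls, 232 of them among the 411, and the WT libraries without replicate 1 gave 1055 and 938.

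Precision depended on the level of the gene. The 95% interval of the log2 change lay within -0.5 to 0.5 for 73% of tested genes. No interval could be given for 107 genes, which count as outside. The share was 97.6% for genes at a log2 CPM of 3 to 6 and 99.3% above 6, but 58.7% at 0 to 3 and 0.448% below 0. An interval of this width can still include 0 for changes near the median of the called genes, so a gene that did not pass may have changed by as much.

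Transcripts of ATR itself were level. ATR (chromosome 3, 142449007 to 142578733, GRCh38) stood at 39.8, 36.9 and 36.8 CPM in DMSO and 38.9, 38.2 and 36.5 CPM with ATRi. The groups overlapped, and the 95% interval of the log2 change ran from -0.13 to 0.14. CHEK1, the main substrate kinase, stood at 49.3, 42.9 and 41.3 CPM in DMSO and 48.9, 45.7 and 48.2 CPM with ATRi, with an interval of -0.05 to 0.24. None of the 22 genes of the ATR checkpoint list passed the test, although 3 were higher and 2 lower at an unadjusted p under 0.05 (13.5% of all genes tested), and their median log2 change was -0.001, against -0.004 over all genes. The smallest adjusted p of the list was that of CDC25A, the phosphatase that the pathway restrains, with a log2 change of -0.11 ± 0.03 (edgeR, adjusted p = 0.0725).

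Start sites of 4 genes that changed with ATRi are shown to give the letters behind the motif shares that follow, and they were chosen after 7 windows had been searched. Of the other 3, FOS held no match to any motif, and DDIT4 and TXNIP held 2 CCAAT matches each and neither CArG nor CARE. Each is the RefSeq window from 250 bases before to 50 bases after the gene's RefSeq start (GRCh38.p14). It reads 5′ to 3′ on the gene's own strand. The gene positions given elsewhere are those deposited with the counts and can differ. For CHAC1 the window lies wholly within the deposited gene, which starts at 40952962. Capitals mark matches on either strand to CArG boxes, the binding motif of serum response factor (EGR1), to CHR, TTTGAA (EGR1), to CCAAT (CHAC1 and HERPUD1), to CARE, TGATGCAA, the composite C/EBP-ATF element (CHAC1 and HERPUD1), and to AP-1, TGAGTCA or TGACTCA, which are the same motif read on opposite strands (SBSN). E2F motifs, TTTGGCGC or TTTCCCGC, and CRE, TGACGTCA, were also searched and are in none of the 4 windows. CArG and CARE were added to the motif list after the gene values had been seen. The windows are chr5:138465229-138465528 on the plus strand for EGR1, chr15:40953221-40953520 on the plus strand for CHAC1, chr16:56931892-56932191 on the plus strand for HERPUD1 and chr19:35528262-35528561 on the minus strand for SBSN.
EGR1: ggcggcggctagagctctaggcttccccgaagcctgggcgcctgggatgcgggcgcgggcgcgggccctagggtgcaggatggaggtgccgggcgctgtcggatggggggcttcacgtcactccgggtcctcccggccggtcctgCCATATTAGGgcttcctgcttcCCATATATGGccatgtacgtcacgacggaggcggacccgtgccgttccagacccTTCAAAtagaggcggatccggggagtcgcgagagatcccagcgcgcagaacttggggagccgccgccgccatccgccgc
CHAC1: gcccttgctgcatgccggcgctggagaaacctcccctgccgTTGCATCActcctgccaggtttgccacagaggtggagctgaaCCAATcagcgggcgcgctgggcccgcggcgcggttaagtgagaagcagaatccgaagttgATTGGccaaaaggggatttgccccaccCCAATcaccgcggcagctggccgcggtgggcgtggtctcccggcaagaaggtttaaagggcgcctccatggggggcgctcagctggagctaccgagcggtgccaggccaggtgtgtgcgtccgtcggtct
HERPUD1: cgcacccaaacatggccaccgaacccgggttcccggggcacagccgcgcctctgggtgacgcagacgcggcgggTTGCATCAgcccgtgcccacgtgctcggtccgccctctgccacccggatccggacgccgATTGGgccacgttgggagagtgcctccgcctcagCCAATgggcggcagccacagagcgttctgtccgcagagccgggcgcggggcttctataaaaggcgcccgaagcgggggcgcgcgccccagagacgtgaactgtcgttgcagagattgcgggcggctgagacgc
SBSN: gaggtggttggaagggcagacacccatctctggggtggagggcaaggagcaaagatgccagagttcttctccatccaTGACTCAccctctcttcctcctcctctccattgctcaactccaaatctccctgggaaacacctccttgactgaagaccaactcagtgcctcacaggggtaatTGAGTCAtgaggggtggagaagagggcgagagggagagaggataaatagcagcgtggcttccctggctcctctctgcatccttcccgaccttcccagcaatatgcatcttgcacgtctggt

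EGR1 held 2 CArG matches, CHAC1 and HERPUD1 1 CARE match each, and SBSN 2 AP-1 matches. Of all 27305 promoters in the table, 1.29% held a CArG match, 0.923% a CARE match, 35.7% a CCAAT match, 15.4% a CHR match, 4.92% an AP-1 match, 2.31% an E2F match and 1.98% a CRE match. Of the 12137 tested genes with a promoter, 1.13% held CArG, 0.486% CARE, 36.5% CCAAT, 9.82% CHR, 3.05% AP-1, 3.55% E2F and 3.12% CRE. Of 258 genes that rose and had a promoter in the table, 2.33% held CArG, 1.55% CARE, 43.0% CCAAT, 11.6% CHR, 1.55% AP-1, 2.71% E2F and 4.65% CRE. Of 73 genes that fell, 1.37% held CArG, 0.0% CARE, 35.6% CCAAT, 2.74% CHR, 8.22% AP-1, 0.0% E2F and 1.37% CRE. The shares rest on few promoters and were not tested. A match describes the letters and is not a measured binding site.

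Immediate early genes, which respond to growth signals and stress without new protein synthesis, were the list with the most members that rose. Of 34 tested, 8 rose and 0 fell, against 2.03% and 0.627% of all tested genes. The median log2 change of the list was 0.148, against -0.004 over all genes. The median deviation of its members from their mean over the 6 libraries was taken in each library. It was -0.167, -0.063 and 0.055 in DMSO and 0.024, 0.078 and 0.108 with ATRi, and the groups overlapped. MYC, a transcription factor of growth and proliferation, stood at 44.9, 45.7 and 52.2 CPM in DMSO and at 71.3, 78.1 and 74.5 CPM with ATRi. All ATRi libraries lay above all DMSO libraries, a log2 change of 0.65 ± 0.06 (edgeR, adjusted p = 1.93e-12). EGR1, a zinc finger transcription factor (chromosome 5, 138465479 to 138469303), stood at 46.1, 46.6 and 51.7 CPM in DMSO and 66.9, 72.5 and 70.2 CPM with ATRi, again without overlap. Its log2 change was 0.54 ± 0.06 (adjusted p = 3.48e-08). MYC and EGR1 passed the test under each of the 19 alternatives run.

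The other members that rose did so by less. FOS, a subunit of AP-1, rose by 0.26 on the log2 scale, CCN1, a matricellular protein, by 0.26, and DUSP1, a phosphatase that inactivates MAP kinases, by 0.25. KLF6 (0.23), DUSP6 (0.22) and BTG2 (0.16) completed the 8. JUN had a log2 change of 0.21 (edgeR, adjusted p = 0.138) and ZFP36, which destabilises AU-rich mRNAs, of -0.33 (adjusted p = 0.0641). Members beyond the 2 that the rule takes from each list were chosen after their values were seen. Without DMSO replicate 1, 6 members rose and 1 fell and the median was 0.075. Without ATRi replicate 2 or DMSO replicate 2, 4 rose, and without ATRi replicate 3, 5.

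Targets of ATF4, the transcription factor of the integrated stress response, also moved upward. Of 22 tested, 7 rose and 0 fell, against 2.03% and 0.627% of all tested genes. The median log2 change of the list was 0.141. CHAC1, an enzyme that degrades glutathione (chromosome 15, 40952962 to 40956512), stood at 6.05, 7.76 and 8.46 CPM in DMSO and at 13.4, 13.0 and 13.2 CPM with ATRi. Its libraries did not overlap, and it had the largest rise among genes named by the rule, a log2 change of 0.83 ± 0.14 (edgeR, adjusted p = 7.77e-05). DDIT4, an inhibitor of mTORC1, rose from 97.7, 110 and 117 CPM to 141, 145 and 149 CPM, by 0.42 ± 0.07 on the log2 scale. PPP1R15A, the phosphatase subunit that reverses phosphorylation of eIF2α, rose by 0.39. STC2 (0.29), SESN2 (0.29), CEBPG (0.21) and XBP1 (0.14) were the others. The amino acid synthesis genes of the same list did not pass, with log2 changes of 0.01 for ASNS, 0.05 for PSAT1 and -0.06 for PHGDH. Without ATRi replicate 3 or DMSO replicate 2, 4 members rose, and 5 without any other single library.

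In the list of the unfolded protein response, which acts when the endoplasmic reticulum is overloaded, 4 of 18 rose and 0 fell, while the median was 0.005. Of all tested genes 2.03% rose and 0.627% fell. HERPUD1, a component of degradation at the endoplasmic reticulum, stood at 44.4, 45.1 and 44.5 CPM in DMSO and 55.0, 56.3 and 55.9 CPM with ATRi, without overlap (log2 change 0.32 ± 0.05, edgeR, adjusted p = 5.01e-06). SEL1L, of the same machinery, rose by 0.25 and the chaperone HSPA5 by 0.16, and XBP1 is also on the ATF4 list. The chaperones HSP90B1 (0.01), CALR (0.00) and PDIA4 (-0.01) did not pass. Without ATRi replicate 1 only 1 member of this list rose, and 2 without ATRi replicate 2, DMSO replicate 2 or DMSO replicate 3.

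**Figure D2:**
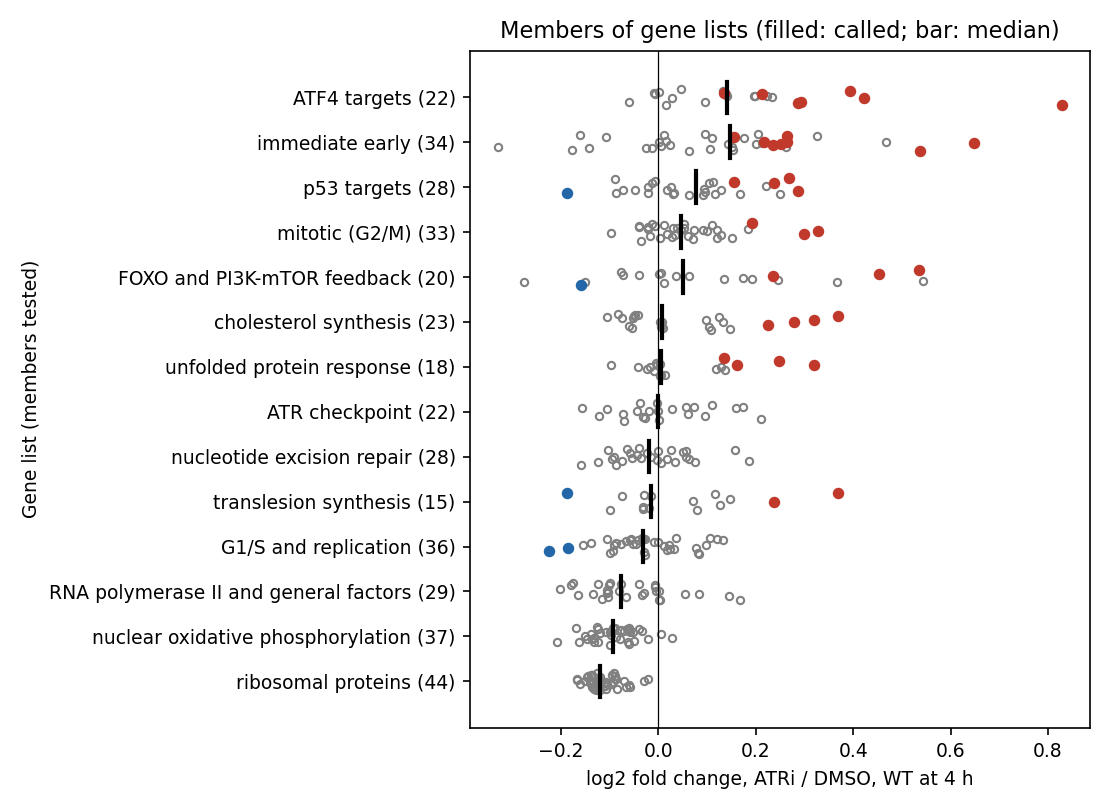
Each point is a gene of the list named on the vertical axis (number of members tested in brackets), placed by its log2 fold change, ATRi over DMSO, in WT at 4 h. Filled points passed the test and bars mark medians, which lie at 0.148 for immediate early genes, 0.141 for ATF4 targets and -0.121 for ribosomal proteins.

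Several nutrient and growth factor responses had single members that rose. In the list of FOXO targets and PI3K-mTOR feedback genes, 3 of 20 rose and 1 fell, against 2.03% and 0.627% of all tested genes. TXNIP, which limits glucose uptake and binds thioredoxin, stood at 11.7, 10.6 and 10.9 CPM in DMSO and 17.1, 15.3 and 15.9 CPM with ATRi (log2 change 0.54 ± 0.07, edgeR, adjusted p = 3.65e-07). TRIB1, a pseudokinase that directs C/EBP proteins to degradation, rose by 0.45 ± 0.06, and KLF6 was the other. CCND1, cyclin D1, fell by 0.16 on the log2 scale. The ATRi and DMSO libraries of these genes did not overlap.

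Against 2.03% and 0.627% of all tested genes, 4 of 23 cholesterol genes rose and 0 fell. Among them INSIG1, which retains SREBP in the endoplasmic reticulum, rose by 0.32 and the synthesis enzyme SQLE by 0.28. The median of the list was 0.007, near that of all genes. In the hypoxia and glycolysis list 3 of 24 rose, namely ANKRD37, a transcriptional target of HIF1 (0.73), the angiogenic factor VEGFA (0.32) and the vasodilator peptide ADM (0.30). The median of that list was -0.047. Without ATRi replicate 1 or DMSO replicate 2, ANKRD37 did not pass.

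Genes of the p53 response showed 4 rises and 1 fall among 28, where 2.03% of all tested genes rose and 0.627% fell. The median of the list was 0.077. GADD45A, a growth arrest gene, stood at 129, 138 and 137 CPM in DMSO and 165, 157 and 164 CPM with ATRi (log2 change 0.27 ± 0.05, edgeR, adjusted p = 0.000672). SESN2 rose by 0.29, PLK2 by 0.24 and BTG2 by 0.16. CDKN1A, the cell cycle inhibitor p21, had a log2 change of -0.02 and MDM2, the ubiquitin ligase of p53, of 0.12, and neither passed. HEK293 cells carry adenoviral proteins that bind p53. POLH, the polymerase that copies past UV lesions, fell by 0.19, but not without any 1 of the 6 libraries.

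Single genes of the cell cycle and of translesion synthesis changed, against 2.03% of all tested genes that rose and 0.627% that fell. Of 33 mitotic genes 3 rose and 0 fell: CENPA, the centromeric histone (0.33), the spindle checkpoint kinase TTK (0.30) and BUB1B (0.19). Of 36 genes of G1/S and replication 0 rose and 2 fell. CCNE1, cyclin E1, stood at 135, 136 and 135 CPM in DMSO and at 118, 120 and 119 CPM with ATRi, groups that did not overlap (log2 change -0.19 ± 0.04, edgeR, adjusted p = 0.000876). E2F8, a repressor of E2F targets, fell by 0.22. In translesion synthesis 2 of 15 rose, the primase PRIMPOL (0.37) and the scaffold polymerase REV1 (0.24), and POLH fell. The ATRi and DMSO libraries of PRIMPOL overlapped.

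None of 28 nucleotide excision repair genes, 30 genes of homologous recombination and the Fanconi pathway, or 18 of P-TEFb and the 7SK complex passed the test. At an unadjusted p under 0.05 these lists had 1 higher and 1 lower, 3 higher and 1 lower, and 0 of either. Of all tested genes 13.5% had an unadjusted p under 0.05, while 2.03% rose and 0.627% fell. PARP1 was the 1 of 18 genes of break signalling and PARP that changed, and it fell by 0.11 on the log2 scale. One of 21 replication histones rose, H2BC21 (0.51 ± 0.10), whose reads may be shared with near-identical copies. The heat shock, interferon-stimulated, RNA polymerase II and neuronal lists had no member that passed. At an unadjusted p under 0.05 they had 1 higher and 0 lower, 2 higher and 3 lower, 2 higher and 6 lower, and 0 of either.

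Housekeeping lists moved mostly in 1 direction, by little except in the mitochondrially encoded genes. All 44 ribosomal protein genes had log2 changes below 0, from -0.17 to -0.02 with a median of -0.121, and 0 passed the test. With library totals 42 of the 44 were below 0, and 43 without ATRi replicate 2, DMSO replicate 2 or DMSO replicate 3. Of 37 nuclear genes of oxidative phosphorylation 35 were below 0, with a median of -0.092, and all 13 mitochondrially encoded genes, with a median of -0.224, and none of these passed. At an unadjusted p under 0.05, 10, 8 and 2 genes of the 3 lists were lower and 0 higher, and DESeq2 called 0, 0 and 1. The WT libraries without replicate 1 called 36, 17 and 3 lower, and the 6 libraries with the replicate block 3, 0 and 11. Across all genes 51.3% were below 0, and 13.5% had an unadjusted p under 0.05 in either direction. Genes of 1 such list share libraries and scaling and are not independent.

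The 12 largest falls among genes with a symbol and a mean level of at least 1 CPM were PRR18, CASS4, C1orf116, SERINC4, SBSN, PYGM, CD14, PHKG1, SHISA4, PSPN, CRISPLD2 and HSPB6. PRR18, a proline-rich protein, stood at 2.41, 3.35 and 3.37 CPM in DMSO and 0.934, 1.52 and 1.48 CPM with ATRi (log2 change -1.18 ± 0.23, edgeR, adjusted p = 0.000906). SBSN, suprabasin, a protein of the differentiating epidermis (chromosome 19, 35523367 to 35528351), stood at 8.51, 10.9 and 10.9 CPM in DMSO and 5.92, 5.83 and 5.46 CPM with ATRi. The groups did not overlap (log2 change -0.82 ± 0.14, adjusted p = 8.73e-05). PYGM, the glycogen phosphorylase of muscle, fell by 0.80 and PSPN, persephin, a neurotrophic factor, by 0.71. All 12 stood below 12 CPM in each library, and the ATRi and DMSO libraries of each did not overlap.

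CD14, a co-receptor for bacterial lipopolysaccharide found on monocytes, fell by 0.79 from 2.70, 2.78 and 3.29 CPM to 1.5, 1.92 and 1.58 CPM. It was 1 of 5 tested members of an 11-gene blood list, and all 5 had log2 changes below 0. The summed level of the list ran from 17.95 to 22.16 CPM in DMSO and from 11.78 to 15.43 CPM with ATRi. The defining marker of white cells, PTPRC, and the T and B cell markers CD3E, CD3D and MS4A1 were too low to be tested. The part of such cells in the result was not tested.

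The 12 largest rises were CHAC1, ANKRD37, MYC, TMCC3, ACVR1, ARSJ, DYNLT2, SIK1, EDNRA, C1QTNF1, ASXL3 and EGR1. ACVR1, a type I receptor for BMPs, stood at 1.90, 2.06 and 1.48 CPM in DMSO and 2.32, 2.85 and 2.88 CPM with ATRi (log2 change 0.60 ± 0.12, edgeR, adjusted p = 0.000974). SIK1, a salt-inducible kinase, stood at 15.9, 16.4 and 17.2 CPM in DMSO and 18.97, 25.7 and 28.2 CPM with ATRi (0.57 ± 0.11, adjusted p = 0.000505). ATRi replicate 1 was the lowest of its group for SIK1 but above every DMSO library. In the list of TGF-beta and BMP signalling, the receptor BMPR1A (0.31) and the inhibitor of differentiation ID4 (0.30) rose. ID1, a direct BMP target, stood at 30.7, 34.6 and 37.8 CPM in DMSO and 23.8, 25.1 and 28.4 CPM with ATRi (log2 change -0.41 ± 0.10, adjusted p = 0.00999).

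**Figure D3:**
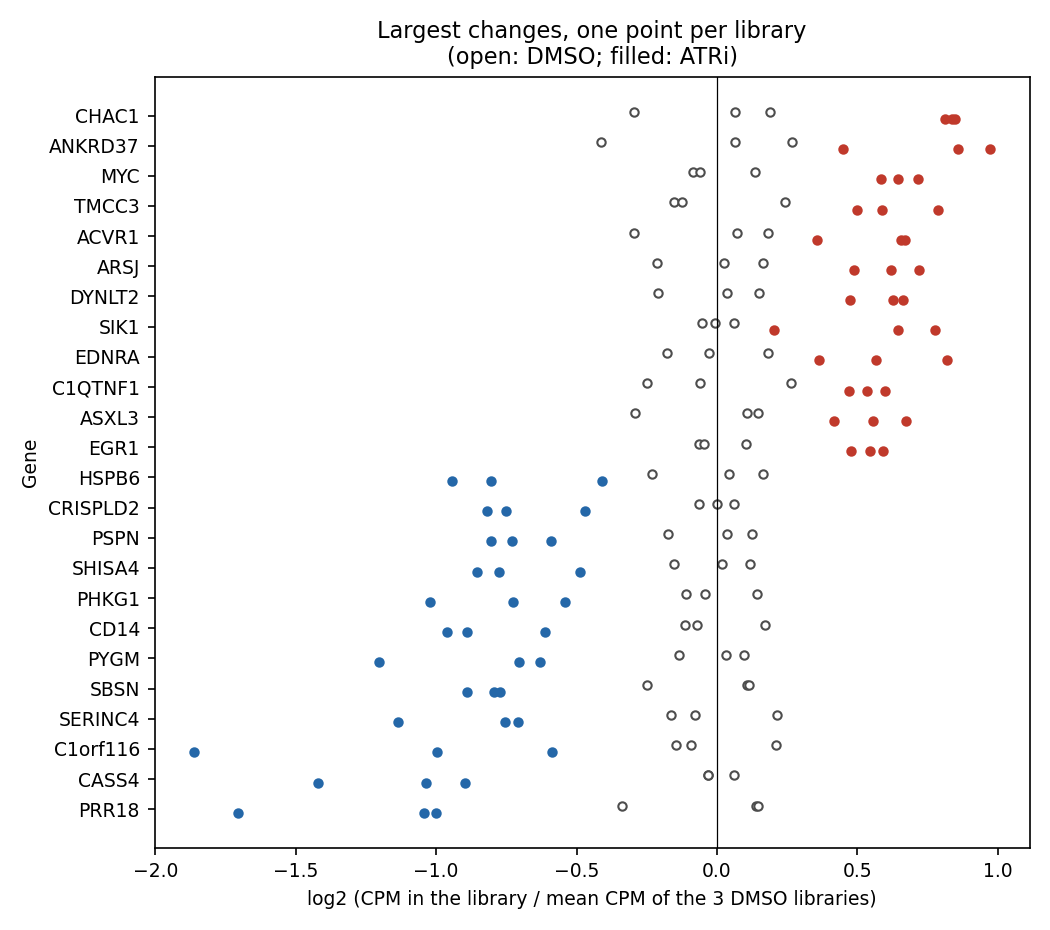
Each row is 1 of the 24 genes with the largest rises and falls, and each point is 1 library, placed by the log2 ratio of its CPM to the mean CPM of the 3 DMSO libraries. Open points (DMSO) and filled points (ATRi) do not overlap in any of the 24 genes.

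Many of these calls did not hold when a single library was left out. Of the 49 called genes named by the rule, 19 passed the test whichever single library was left out, and 30 failed it without at least 1. The 19 were MYC, EGR1, CHAC1, SIK1, TXNIP, TRIB1, H2BC21, DDIT4, HERPUD1, INSIG1, VEGFA, ID4, GADD45A, CCNE1, PSPN, PYGM, SBSN, CASS4 and PRR18. DYNLT2, EDNRA, C1QTNF1, ASXL3, BMPR1A, NFKBIZ, LIN28B and CCND1 each failed in 5 of the 6 omissions, and POLH in all 6. The direction of each of the 49 was the same in all omissions. This was largely fixed in advance and is no evidence of stability. The ATRi and DMSO libraries did not overlap in 97.5% of all genes that rose and 99% of those that fell. Counts in small lists moved with the omissions. No mitotic gene rose without ATRi replicate 1, ATRi replicate 2 or DMSO replicate 2, and 1 rose without DMSO replicate 3. No translesion gene rose without ATRi replicate 1, DMSO replicate 2 or DMSO replicate 3, and 1 did without ATRi replicate 2 or ATRi replicate 3. Of the p53 list 2 rose without DMSO replicate 2 or DMSO replicate 3. In the BMP list 1 rose without any single library other than DMSO replicate 1. Of the G1/S list 1 fell without ATRi replicate 1, ATRi replicate 2, DMSO replicate 1 or DMSO replicate 2. Without DMSO replicate 1, 5 genes of the FOXO list rose, and 3 of the hypoxia list fell. Without ATRi replicate 2, ATRi replicate 3, DMSO replicate 2 or DMSO replicate 3, 2 genes of the FOXO list rose, and the hypoxia list had 2 rises without ATRi replicate 1, ATRi replicate 2, DMSO replicate 1 or DMSO replicate 2.

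Genes that had fallen after UV were on balance higher with ATRi, and genes that had risen after UV were on balance lower. Genes were divided by their change in WT from 0 h to 3 h, before any inhibitor, a comparison that shares no library with the 6 here and in which 12.6% of tested genes changed at least 2-fold (edgeR). Of 1152 genes that had fallen at least 2-fold by 3 h, 89 rose with ATRi (7.73%) and 1 fell, and their median log2 change was 0.112. Of 799 that had risen at least 2-fold, 38 fell (4.76%) and 21 rose, and the median was -0.160, with 70% of them below 0. In the other 13519 genes 204 rose (1.51%) and 58 fell (0.429%), with a median of -0.008. Among the genes that had fallen were MYC (-1.74 at 3 h), TMCC3 (-1.89), ACVR1 (-1.74), ARSJ (-2.25) and ASXL3 (-1.77). Those that had risen included SBSN (4.18), PYGM (3.47), PRR18 (3.26) and PSPN (2.62).

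In each library the median deviation of the genes that had risen by 3 h from their mean over the 6 libraries was 0.05, 0.065 and 0.143 in DMSO and -0.072, -0.057 and -0.038 with ATRi. For those that had fallen it was -0.015, -0.07 and -0.076 in DMSO and 0.069, 0.066 and 0.042 with ATRi. The groups did not overlap in either class. The medians of both classes had the same sign under each alternative run, from -0.187 to -0.115 for the risen class and from 0.098 to 0.157 for the fallen class. The counts moved more. Leaving out any single library other than DMSO replicate 1 reduced the 89 rises to between 34 and 51, and leaving out ATRi replicate 1, ATRi replicate 3 or DMSO replicate 3 reduced the 38 falls to 21, 25 and 24. Without DMSO replicate 1 the numbers were 81 and 33. Some genes went against the pattern. GADD45B (2.27 at 3 h) and the ATF4 targets CHAC1 (1.60) and PPP1R15A (1.25) had risen after UV and rose again with ATRi.

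**Figure D4:**
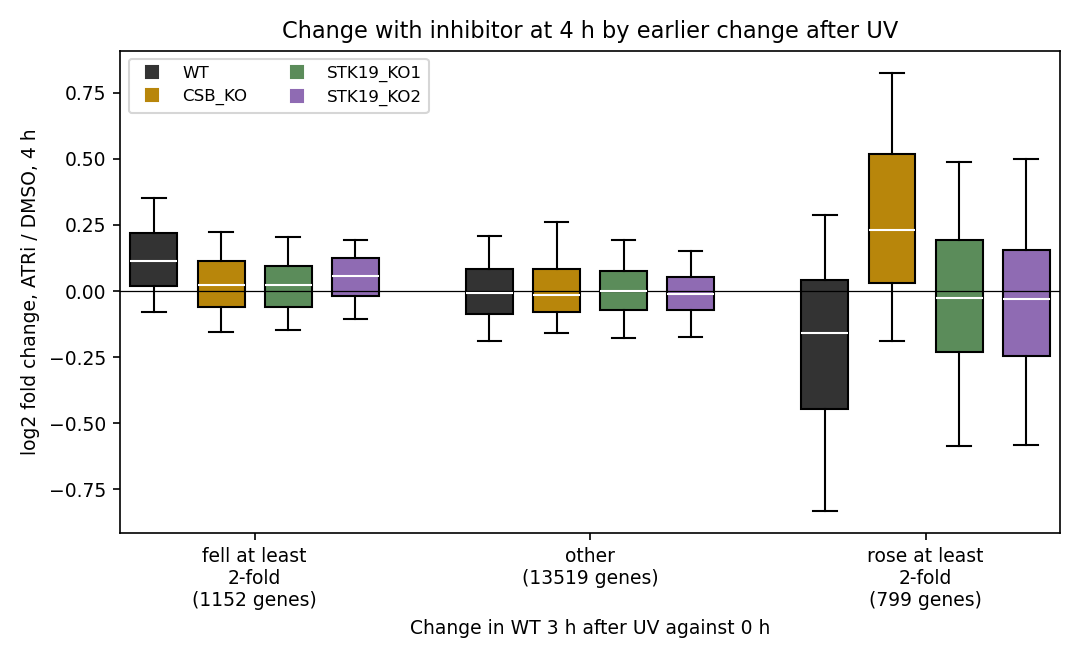
Boxes show the log2 fold change, ATRi over DMSO at 4 h, of genes grouped by their change in WT from 0 h to 3 h after UV, for the 4 lines (white line, median; box, quartiles; whiskers, 10th to 90th percentiles). In WT the medians lie at 0.112 for genes that had fallen and -0.160 for genes that had risen, and in CSB_KO the risen class lies at 0.233.

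Levels at 4 h were also set beside those at 3 h. Both comparisons use the same 3 h libraries, which also defined the UV classes, and are given side by side only. The median log2 change from 3 h of the risen class was 0.217 in DMSO and 0.071 with ATRi, and that of the fallen class -0.12 and -0.001. SBSN rose from 0.263 ± 0.141 CPM at 0 h to 5.24 ± 0.896 at 3 h (SD, n = 3). At 4 h it stood at 10.1 ± 1.4 CPM in DMSO and 5.74 ± 0.243 with ATRi. MYC stood at 155.6 ± 8.20 CPM at 0 h, 46.5 ± 0.604 at 3 h, 47.6 ± 4.01 at 4 h in DMSO and 74.6 ± 3.43 at 4 h with ATRi. BMPR1A stood at 52.5 ± 4.52, 9.54 ± 1.41, 7.12 ± 0.484 and 8.80 ± 0.296 CPM in the same order. With ATRi at 4 h MYC was thus above and SBSN near its level at 3 h.

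**Figure D5:**
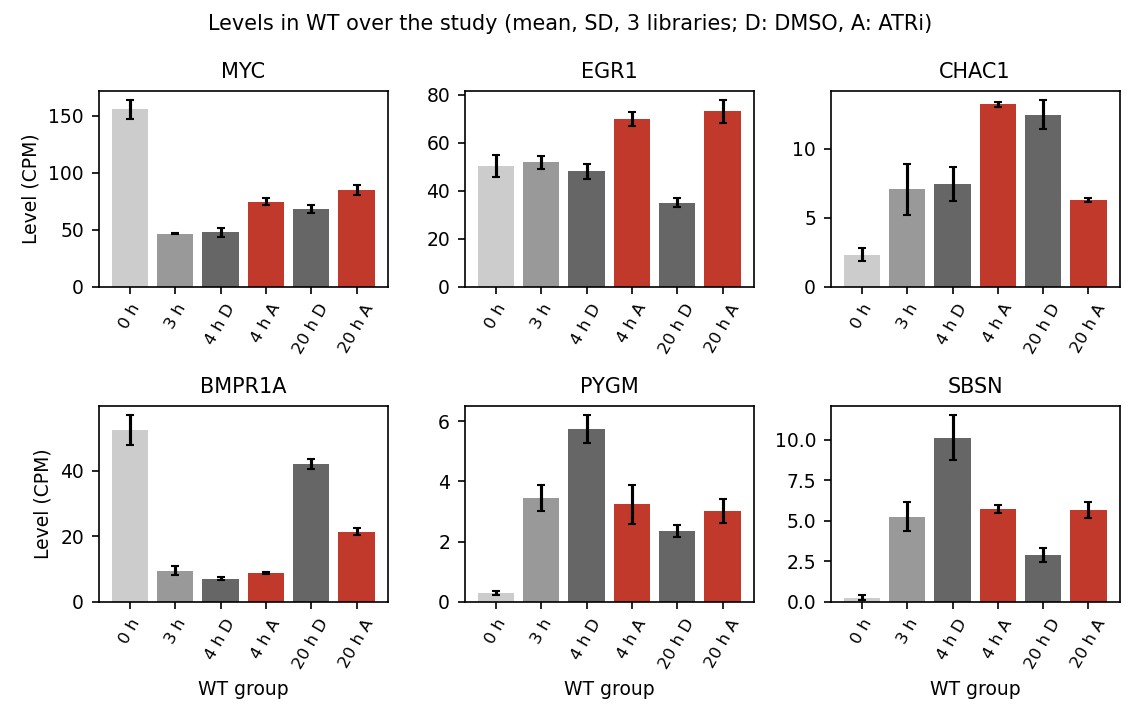
Bars give the mean level (CPM, axis from 0) and error bars the SD of 3 libraries for 6 genes in the 6 WT groups, with D for DMSO and A for ATRi. With ATRi at 4 h, MYC, EGR1, CHAC1 and BMPR1A stand above DMSO at 4 h and PYGM and SBSN below it.

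The share of genes that rose showed no steady trend with the span of the gene. The median log2 change was higher in longer genes, and falls were rarer above 100 kb. In genes spanning 100 to 300 kb, 71 rose and 3 fell of 2475, with a median log2 change of 0.036. The shares that rose were 2.66% under 10 kb, 1.86% at 10 to 30 kb, 1.49% at 30 to 100 kb, 2.87% at 100 to 300 kb and 1.09% above, and those that fell 0.8%, 1.03%, 0.482%, 0.121% and 0.156%. The median was -0.039 under 10 kb, or 0.006 with library totals. It was -0.023 at 10 to 30 kb, 0 at 30 to 100 kb and 0.037 above 300 kb. Span moved with the UV response: the median log2 change from 0 h to 3 h was -0.41 for genes of 100 to 300 kb and 0.40 for genes under 10 kb. Span and the UV response were not separated here. Of 247 zinc finger genes on chromosome 19, 15 rose (6.07%) and 0 fell. Of 281 on other chromosomes, 10 rose (3.56%) and 4 fell (1.42%), against 2.03% and 0.627% of all tested genes. The medians of these zinc finger sets were 0.024 and 0.026.

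Most genes that changed in WT moved in the same direction in the STK19 knockouts at 4 h. In STK19_KO1 140 genes changed with ATRi (0.905%; 120 rose, 0.776%, and 20 fell) and in STK19_KO2 34 (0.22%; 30 rose, 0.194%, and 4 fell). Of the 314 genes that rose in WT, 286 had the same sign in STK19_KO1 and 273 in STK19_KO2, where 50.8% and 46.9% of all genes were above 0. Their median log2 change was 0.28 in WT, 0.138 in STK19_KO1 and 0.092 in STK19_KO2. The 314 genes were chosen by their WT values, which favours a larger median in WT. The medians of the UV classes lay nearer 0 than in WT, at 0.021 and 0.056 for genes that had fallen and -0.026 and -0.030 for genes that had risen; this difference was not tested. The 68 that also rose in STK19_KO1 were 56.7% of its rises, and the 21 in STK19_KO2 70% of its rises. The test of the difference, the mean of both knockouts minus WT, found 1 gene (0.00646%; edgeR), and 831 genes had an unadjusted p under 0.05. That gene was ADAMTS1, a secreted protease, which rose by 0.27 ± 0.03 in WT, 0.50 in STK19_KO1 and 0.52 in STK19_KO2, a difference of 0.24 (adjusted p = 0.00555). DESeq2 found 12 genes. A missed threshold does not show that the lines respond alike.

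In CSB_KO 460 genes changed (2.97%; 417 rose, 2.7%, and 43 fell, 0.278%). Of the 314 genes that rose in WT, 26 also rose in CSB_KO and 1 fell, and of the 97 that fell, 2 fell and 16 rose. The response differed from that in WT in 495 genes (3.2%), with 360 higher (2.33%) and 135 lower (0.873%) in CSB_KO (edgeR). Mitochondrial transcripts moved with this response, from 2.17 to 2.61% of counts in DMSO to 3.59 to 4.2% with ATRi in CSB_KO, where 12 of the 13 mitochondrially encoded genes rose with a median of 0.676, against -0.224 in WT; their part in the result was not tested. Of the 799 genes that had risen after UV in WT, 96 were higher in CSB_KO (12%) and 2 lower, and of the 1152 that had fallen, 4 were higher and 40 lower (3.47%). SBSN stood at 4.14 ± 0.893 CPM in DMSO and 6.30 ± 0.510 with ATRi in CSB_KO (SD, n = 3), and the difference of its log2 change from WT was 1.43 ± 0.20 (adjusted p = 1.74e-06). AOC3, an amine oxidase, had log2 changes of -0.51 in WT and 0.74 in CSB_KO, a difference of 1.25 ± 0.12. MYC rose by 0.65 in WT and had a log2 change of 0.18 in CSB_KO (difference -0.47 ± 0.08, adjusted p = 8.87e-05). The loss of CSB and other properties of this 1 line cannot be told apart. Under scaling by library totals the 477 genes that differed split into 268 higher and 209 lower.

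Rises in WT that were also called in CSB_KO and both STK19 knockouts were those of EGR1, FOS, TRIB1, TXNIP, GADD45B, BRD2, COX19, EIF5 and H2BC26, 9 genes that were singled out after their values were seen. GADD45B, a stress-induced growth arrest gene, had a log2 change of 0.46 in WT, 0.27 without CSB, and 0.80 and 0.59 in the STK19 knockouts. ID1 was the 1 gene that fell in all 4, with log2 changes of -0.41 in WT, -0.42 in CSB_KO and, in the STK19 knockouts, -0.50 and -0.65.

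The response to ATRi in WT at 20 h was larger and in many genes of other direction. There 9885 genes changed (63.9%; 30.2% rose and 33.7% fell), and the response differed from that at 4 h in 8586 genes (55.5%; 4153 higher and 4433 lower at 20 h). With library totals, which shift the median difference of all genes from -0.0288 to -0.183, the split was 3025 and 5714. Of the 314 genes that rose at 4 h, 137 rose and 124 fell at 20 h, and of the 97 that fell, 25 fell and 50 rose. Of the 24 genes with the largest changes at 4 h, 21 differed between the times (edgeR). These 24 were chosen by their 4 h values, which also enter the difference, so this count is no independent evidence. EGR1 was higher with ATRi at both times, with 34.9 ± 1.90 CPM in DMSO and 73.1 ± 4.77 with ATRi at 20 h. CHAC1 was higher with ATRi at 4 h and lower at 20 h, with 12.5 ± 1.07 CPM in DMSO and 6.30 ± 0.152 with ATRi at 20 h (difference of log2 changes -1.81 ± 0.20, adjusted p = 1.33e-11). GADD45A went from 0.27 at 4 h to 2.01 at 20 h on the log2 scale.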

How the data were processed

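Polyadenylated RNA was extracted with a column kit and made into strand-specific libraries with the NEBNext Ultra II Directional kit, per the labels' protocols. Expected counts per gene were deposited by the authors as 1 table of 72 libraries. The submitters' processing notes name STAR, RSEM, deepTools 3.5.1 and GRCh38, without roles. The versions of STAR and RSEM and the annotation are not given in the sources used here. The deposited values were whole numbers and were used as they stand. Reads of near-identical genes, such as replication histones, may have been divided between copies.

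Genes were kept by edgeR's filterByExpr (minimum count 10, minimum total 15), which left 15470 of 19324 and removed 3854. Scaling was by TMM (trimmed mean of M values). A quasi-likelihood model with 1 mean for each of the 24 groups was fitted over all 72 libraries with 48 residual degrees of freedom (R 4.3.3, edgeR 4.0.16, limma 3.58.1). P-values were adjusted by Benjamini-Hochberg over all genes tested, with a threshold of 0.05. Contrasts were ATRi against DMSO at 4 h in each line, the same in WT at 20 h, 3 h and 4 h against earlier times, and 3 differences between responses. The 6 libraries compared held 36.5 to 116.2 M counts, and all 72 held 36.5 to 212.9 M.

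The genes named are ATR and CHEK1, the 12 largest rises and 12 largest falls among called genes with a symbol and a mean log2 CPM of at least 0, up to 2 called members each way of every gene list (where none was called, the member with the smallest unadjusted p), and for each difference the 3 largest each way among called genes with a mean log2 CPM of at least 3. Other genes named were chosen after their values were seen. Some genes that the rule or the lists hold are not reported here. The comparison, the gene lists and the tests were chosen with earlier results of these data known, so the lists are no independent evidence of direction. No test was made of a list.

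The fit was tested on data simulated for the WT comparison with known changes. Alternatives were DESeq2 1.42.0, its size factors, library totals, limma-voom, no filter or a stricter filter, other sets of libraries, a replicate block and omission of each library.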

Additional observations from a re-analysis of the deposited data

Results flagged for a closer look

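Responses to ATRi were compared between lines and between times by a test of the difference itself (edgeR's quasi-likelihood test, Benjamini-Hochberg adjustment). In CSB_KO the response at 4 h differed from that in WT in 495 genes, in the mean of the STK19 knockouts in 1, and in WT the response at 20 h differed from that at 4 h in 8586.

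Among the largest rises in WT, the log2 change was lower in CSB_KO for CHAC1 (difference -0.71), MYC (-0.47), TMCC3 (-0.75), ACVR1 (-0.81) and ASXL3 (-0.82). The largest such differences among genes at higher levels included PET117, an assembly factor of cytochrome oxidase (-0.57), and TWIST1, a transcription factor of mesenchymal cells (-0.62). Among the largest falls in WT and the largest differences, it was higher in CSB_KO for AOC3 (1.25), CEL, a bile salt lipase (1.34), PSPN (1.25), PHKG1, a subunit of phosphorylase kinase (0.97), PYGM (1.51), SBSN (1.43), SERINC4 (1.23) and PRR18 (1.42). Other genes named above also differed by less, among them INSIG1 (-0.44), SEL1L (-0.34), ID4 (-0.33), NFKBIZ (0.42), E2F8 (0.41) and CCND1 (0.25). In the STK19 knockouts ADAMTS1 differed by 0.24. The largest rises and falls were chosen by their WT values, which also enter these differences, so that choice favours the directions given.

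Between the times in WT, the genes with the largest differences, 20 h minus 4 h, among called genes with a mean log2 CPM of at least 3, were TNFAIP3, an inhibitor of NF-kB signalling (2.3), DUSP8, a MAP kinase phosphatase (2.26), and the histone gene H4C14 (3.09); this gene has near-identical copies and its value is uncertain. The largest in the other direction were BAHCC1 (-2.55), CCDC9B (-2.73) and NYNRIN (-3.11).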

How the results depend on the processing

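The count of 411 called genes in WT at 4 h was 329 to 539 with DESeq2, its size factors, limma-voom, either filter or the replicate block over all libraries, and 403 with the 6 libraries and the block (221 rose, 182 fell, 232 shared with the 411). It was 675 with library totals, 170 without replicate 1 of both groups, 2 with the 6 libraries alone (MYC and EGR1, with 1699 genes at an unadjusted p under 0.05) and 17 with the 18 WT libraries. Among alternatives chosen after seeing the data it was 59 with the 18 WT libraries and the block, and 1993 (1055 rose, 938 fell) with WT libraries lacking replicate 1 in every group. Omission of 1 library gave 196 to 460. The replicate block over all libraries called 539 genes, 408 of them among the 411. The correlations of deviations between same-numbered ATRi and DMSO libraries were 0.594, 0.082 and 0.543. Those between differently numbered libraries ran from -0.583 to 0.356. ATRi replicate 2 correlated best with DMSO replicate 3 (0.148), so the numbers were not taken to pair the samples. Replicates 1 and 3 did deviate together, and the main fit, without a replicate term, left this out. The 1 gene that differed in the STK19 knockouts became 12 with DESeq2, 2 with its size factors, 0 with library totals, 0 without a filter, 2 with the stricter filter, 4 with the replicate block and 0 to 5 when 1 library was left out. The differences of CSB_KO took in 358 to 612 genes and those of 20 h 8144 to 8938 in the alternatives reported for them. These counts stayed within 1.5 times of 495 and 8586. Fits restricted to WT libraries are not part of these ranges. None of the 49 called genes named changed direction in any alternative. Where the ATRi and DMSO libraries of a gene do not overlap, omitting libraries could hardly have changed it. Where counts moved, the cause was not tested. Genes below 1 CPM limit what depth can show.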
